A study of Homo sapiens with 18 samples.

Results

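Human embryoid bodies that had received an shRNA against KBTBD8 were set against embryoid bodies that carried no virus, to see how far they resembled each other. The comparison used 5 of the 18 arrays of the series, chosen by sample title: replicates 1 and 3 labelled KBTBD8 shRNA, and replicates 1 to 3 of untransduced embryoid bodies. Every array held RNA of H1, a single human embryonic stem cell line, hybridised to an Affymetrix Human Gene ST array, which reads a gene with probes spread along its exons. Embryoid bodies are cell aggregates in which early embryonic lineages appear. They were formed in AggreWell plates and differentiated for 6 days in APEL medium. Pluripotent H1 cells were grown without feeder cells on Matrigel in mTeSR1 medium.

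The series held 6 groups of 3 arrays, since embryoid bodies and pluripotent cells had each received lentivirus with the KBTBD8 shRNA, lentivirus with a control shRNA, or no virus. The design describes 3 independent samples without saying whether each was transduced separately, so p-values measure the spread between these samples, which may be technical. The untransduced embryoid bodies lacked both the virus and the hairpin, and the effects of these cannot be told apart in the comparison with them. For that reason many differences are given beside the level in control-shRNA embryoid bodies or the difference from them. A difference given without either is from untransduced embryoid bodies alone, and does not separate virus from hairpin.

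KBTBD8 is a substrate adaptor of the ubiquitin ligase built on CUL3. It is known, from work in human embryonic stem cells and Xenopus, to direct monoubiquitylation of the nucleolar proteins TCOF1 and NOLC1 and to be needed for specification of the neural crest. The crest is a migratory population that forms at the border between the neural plate and the surface ectoderm, where PAX, ZIC, MSX and DLX transcription factors come on before the crest factors SNAI2, FOXD3 and SOX10. LHX2, SIX3 and RAX mark the anterior neural plate, which gives rise to forebrain and eye.

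Before any result, 2 arrays were set aside because they lay with the other state. The embryoid body array labelled KBTBD8 shRNA replicate 2 correlated at 0.9893 to 0.9921 across genes with the pluripotent KBTBD8-shRNA arrays, and at 0.9118 to 0.9159 with the embryoid body arrays of its own label. The pluripotent array labelled KBTBD8 shRNA replicate 2 did the opposite, with correlations of 0.984 to 0.9904 with the embryoid body KBTBD8-shRNA arrays and 0.9037 to 0.913 with the pluripotent ones. Each thus lay with the state on the other's label, and whether the pair was exchanged was not tested. A call lost with 18 arrays therefore rests on a group that holds an array of the other state's profile. All values below come from the other 16 arrays unless all 18 are named, and a count with 18 arrays keeps both as labelled. Levels are the deposited log2 signals. The median over an array's probe sets was 6.02 to 6.10 in KBTBD8-shRNA, 6.05 to 6.08 in control-shRNA and 5.85 to 5.91 in untransduced embryoid bodies. Of 18417 genes with a probe set of their own, 14373 were tested, namely those whose signal exceeded its array's 40th percentile in 2 or more of the 16 arrays. The lower quartile of an embryoid body array was 4.36 to 4.57. Signals below it in every array of a group are read here as low, and a difference against them is not exact. Among the genes described this held for CRIPTO, HPGD, DKK1, CDH9, AFP and MIR302B in untransduced, for HPGD in control-shRNA, and for EYA4, ABCA5 and PHYHIPL in KBTBD8-shRNA embryoid bodies. A gene could pass through the group in which it was high, so each count below is of tested members. Differences are in log2 units, positive where KBTBD8-shRNA embryoid bodies were higher, with a standard error (SE) and a p-value from limma adjusted by the Benjamini-Hochberg method over all genes tested. A gene is called higher or lower where this adjusted p was under 0.05.

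Across all genes, KBTBD8-shRNA embryoid bodies lay closer to control-shRNA embryoid bodies than to untransduced ones. A KBTBD8-shRNA array differed from an untransduced array by 2-fold or more at 573 to 790 genes over the 6 pairs, with a correlation across genes of 0.9435 to 0.9558. The 6 pairs with control-shRNA arrays differed at 150 to 161 genes, with correlations of 0.9771 to 0.9812. Between replicates the numbers were smaller: 10 genes for the pair of KBTBD8-shRNA arrays, 1 to 4 genes for control-shRNA pairs and 7 to 35 genes for untransduced pairs. Control-shRNA arrays stood about as far from untransduced ones, at 558 to 794 genes over 9 pairs. On a longer scale, KBTBD8-shRNA embryoid body arrays differed from untransduced pluripotent arrays at 964 to 1194 genes. Control-shRNA embryoid body arrays differed from them at 1161 to 1354 genes, and untransduced embryoid body arrays at 1404 to 1513 genes. The ranges against pluripotent cells thus did not overlap between KBTBD8-shRNA and untransduced embryoid bodies. These correlations run across genes of single arrays, which are not independent replicates, and carry no test.

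**Figure D1:**
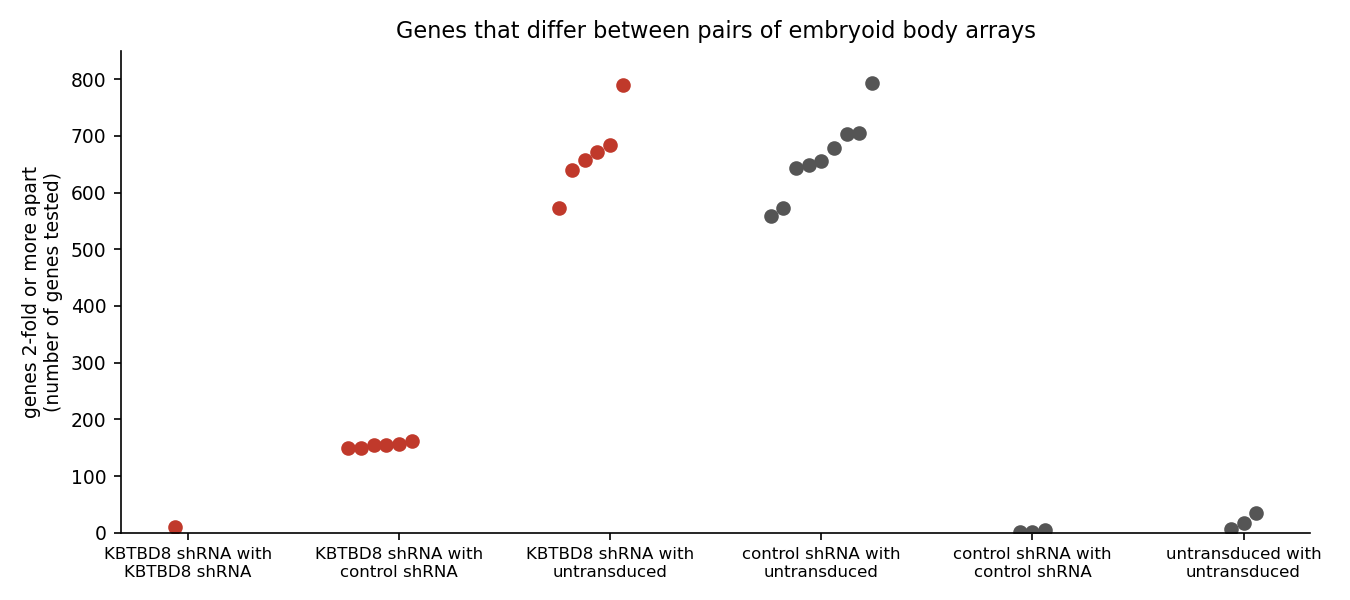
Number of the 14373 genes tested that differed by 2-fold or more (vertical axis) for each pair of embryoid body arrays, with each point a pair, sorted within its kind. The 6 pairs of KBTBD8-shRNA with untransduced arrays lie at 573 to 790 genes, in the range of the control-shRNA pairs with untransduced arrays, and the 6 pairs of KBTBD8-shRNA with control-shRNA arrays lie at 150 to 161 genes.

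The test per gene gave the same order of sizes. Of the 14373 genes tested, 5868 (40.8%) differed between KBTBD8-shRNA and untransduced embryoid bodies, 3225 (22.4%) higher and 2643 (18.4%) lower. The count fell to 3602 without KBTBD8 shRNA replicate 1. The excess of higher genes depended on scaling, with 2720 higher and 2825 lower after a further quantile normalization and 2827 higher and 3042 lower with arrays centred on their median. Between control-shRNA and untransduced embryoid bodies 6418 genes (44.7%) differed, 3523 (24.5%) higher and 2895 (20.1%) lower. Differences that were called and reached 2-fold numbered 559 (3.89%) with KBTBD8 shRNA and 570 (3.97%) with control shRNA, each against untransduced embryoid bodies. Between KBTBD8-shRNA and control-shRNA embryoid bodies 825 genes (5.74%) differed, 403 (2.8%) higher and 422 (2.94%) lower, and 135 (0.939%) were called and reached 2-fold. Without KBTBD8 shRNA replicate 1 this count was 496, and without replicate 3 it was 443. Many of the differences from untransduced embryoid bodies were small: for 12959 genes (90.2%) the 95% interval of the difference lay wholly within 1 log2 unit of 0, and for 8428 genes (58.6%) within 1.5-fold. For 275 genes the interval lay wholly beyond 1 log2 unit. The median difference over all genes tested was 0.038, which is the background for the medians of the gene groups below. For their counts the background is 22.4% higher and 18.4% lower against untransduced embryoid bodies. Against control-shRNA embryoid bodies it is 2.8% higher and 2.94% lower. The arrays of KBTBD8-shRNA and untransduced embryoid bodies did not overlap for 9064 genes (63.1%). Those of KBTBD8-shRNA and control-shRNA embryoid bodies did not overlap for 5029 genes (35%), beside the 825 (5.74%) called. With 2 against 3 arrays only 10 regroupings exist, so a lack of overlap is frequent without any difference and is a description.

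KBTBD8 itself was low in every embryoid body group. Its log2 signals were 4.86 and 4.66 in KBTBD8-shRNA, 4.43, 4.79 and 5.04 in control-shRNA and 4.54, 5.06 and 4.07 in untransduced embryoid bodies. The 3 groups overlapped, and the KBTBD8-shRNA group differed from the untransduced one by 0.20 (SE 0.26, 95% interval -0.34 to 0.75). A two-sided exact permutation test over the arrays gave p = 0.7, where 2 against 3 arrays allow no p below 0.1. The arrays therefore did not show a lower KBTBD8 transcript in the embryoid bodies labelled KBTBD8 shRNA, and the group is named here by its label. Without untransduced replicate 3 the difference was -0.04. In pluripotent cells the signal averaged 5.04 ± 0.12 in KBTBD8-shRNA cells (SD, 2 arrays) and 6.32 ± 0.25 in untransduced cells (SD, 3 arrays). The difference was -1.27 (limma adjusted p = 0.002), and the exact permutation test there gave p = 0.1, the lowest it allows.

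Among the partners of KBTBD8, TCOF1 was higher and CUL3 lower than in untransduced embryoid bodies. TCOF1, the treacle protein of ribosomal RNA transcription, had signals of 8.05 and 8.04 in KBTBD8-shRNA, 7.96, 8.0 and 8.01 in control-shRNA and 7.54, 7.46 and 7.41 in untransduced embryoid bodies. Both transduced groups lay above the untransduced one, with a difference of 0.58 for KBTBD8 shRNA (SE 0.09, adjusted p = 0.000158). CUL3, the scaffold of the ligase, was 9.81 and 9.66 in KBTBD8-shRNA, 9.85, 9.68 and 9.77 in control-shRNA and 10.31, 10.34 and 10.36 in untransduced embryoid bodies, a difference of -0.60 (adjusted p = 5.12e-05). NOLC1, a nucleolar chaperone of box C/D and H/ACA particles, differed by 0.02 (95% interval -0.18 to 0.22, adjusted p = 0.883). Of 29 tested adaptors of CUL3 and partners of KBTBD8, 5 were higher and 9 lower than in untransduced embryoid bodies, with a median of -0.123. Without KBTBD8 shRNA replicate 1 these counts were 3 and 5, and with 18 arrays 2 and 6. The largest changes were those of the kelch adaptors ENC1 (1.68), IPP (-1.04) and KLHL2 (-0.60). Calls against untransduced embryoid bodies made up 48.3% of the 29, beside 40.8% of all genes tested. None of the 29 was called against control-shRNA embryoid bodies, where 5.74% of all genes tested were called.

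Genes of epithelium were higher than in untransduced embryoid bodies. All 18 tested of 22 listed members were called higher, with a median difference of 1.557, and 17 of the 18 were also higher in control-shRNA embryoid bodies, with a median of 0.974. CDH1, the epithelial cadherin, had signals of 10.53 and 10.58 in KBTBD8-shRNA, 9.84, 9.84 and 9.81 in control-shRNA and 5.99, 6.70 and 6.35 in untransduced embryoid bodies. The untransduced arrays lay far below both others, with a difference of 4.20 for KBTBD8 shRNA (SE 0.15, adjusted p = 3.15e-11). Untransduced pluripotent cells averaged 10.34 ± 0.19 (SD, 3 arrays), so CDH1 in KBTBD8-shRNA embryoid bodies lay near its signal in undifferentiated cells. EPCAM, the epithelial cell adhesion molecule, read 10.44 and 10.47 in KBTBD8-shRNA, 10.35, 9.88 and 10.07 in control-shRNA and 6.33, 7.72 and 7.99 in untransduced embryoid bodies. Its difference was 3.11 (SE 0.32, adjusted p = 2.36e-06), with the lowest untransduced array, replicate 1, standing apart from the other two.

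The transcription factors and junction genes of epithelium moved with CDH1. GRHL3, a grainyhead factor of surface ectoderm, was 8.07 and 8.10 in KBTBD8-shRNA, 7.40, 7.38 and 7.60 in control-shRNA and 5.24, 5.13 and 5.35 in untransduced embryoid bodies, a difference of 2.85. Its relative GRHL2 was 7.01 and 7.39, against 4.41, 5.16 and 4.66 in untransduced embryoid bodies, a difference of 2.46. The claudin CLDN7 was higher by 2.37, the small GTPase RAB25 by 1.82 and the keratin KRT18 by 1.54. Against control-shRNA embryoid bodies, 10 of the 18 were higher and none lower, among them CDH1 by 0.72 (adjusted p = 0.00618), GRHL2 by 1.05 (adjusted p = 0.0016) and GRHL3 by 0.62 (adjusted p = 0.00498). EPCAM was not called there, with a difference of 0.36 (adjusted p = 0.697). In bulk samples such as these, fewer cells of a type and less RNA per cell cannot be told apart.

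**Figure D2:**
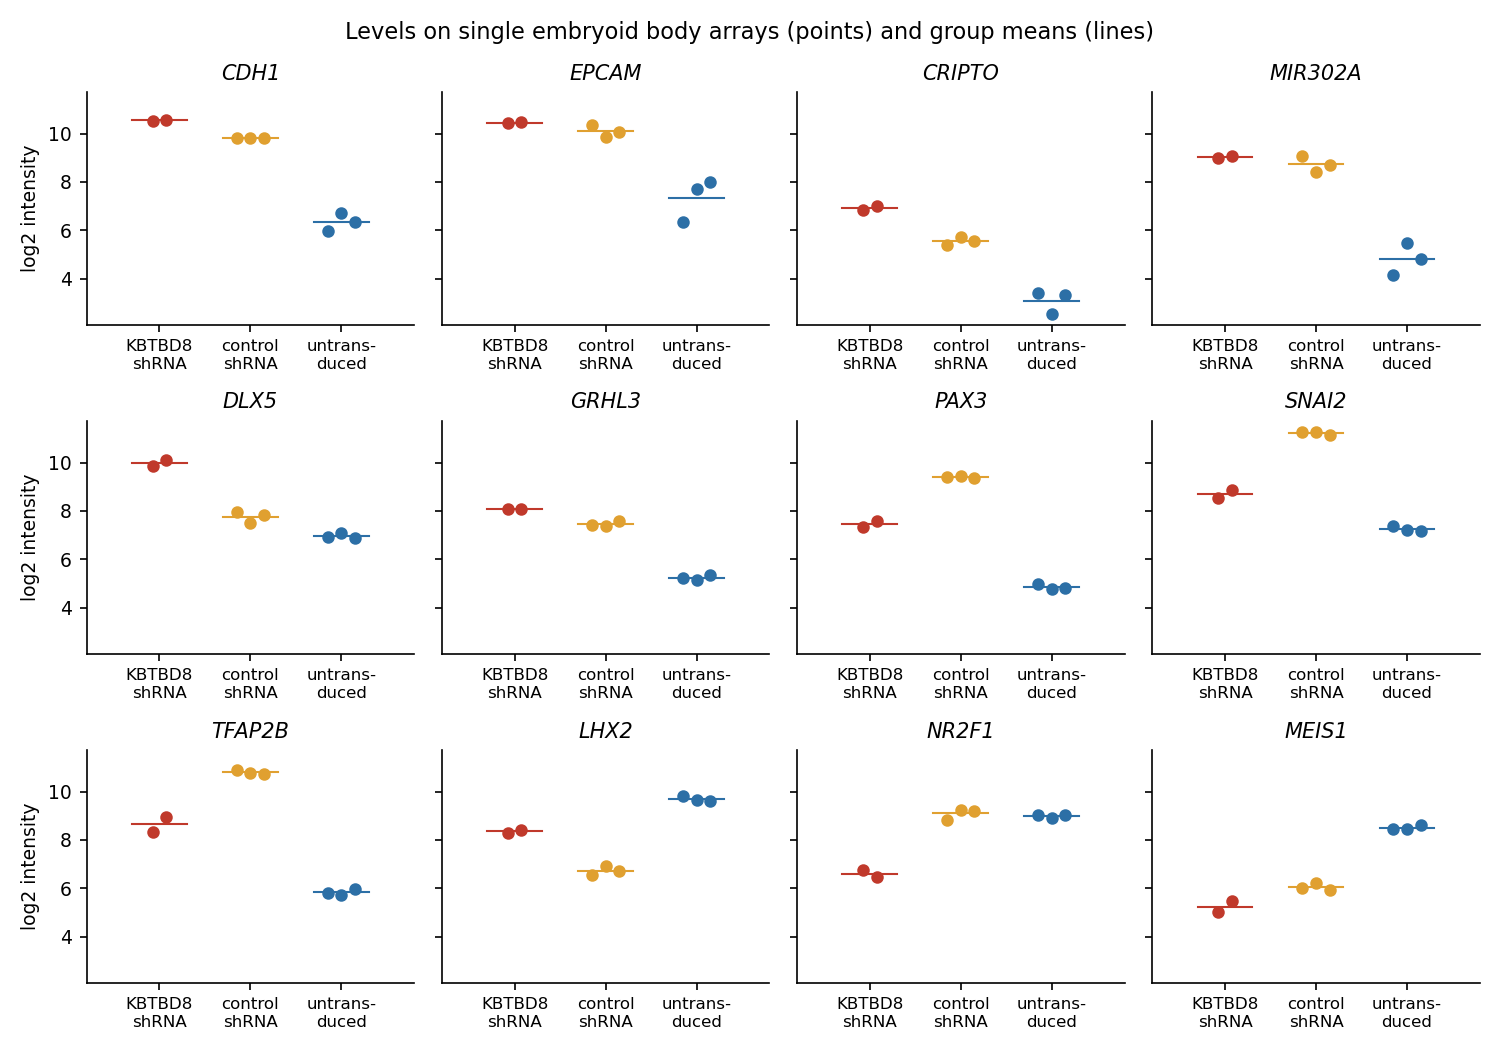
Log2 signal (vertical axis) of 12 named genes in KBTBD8-shRNA (2 arrays), control-shRNA (3 arrays) and untransduced (3 arrays) embryoid bodies, with points for arrays and short lines for group means. CDH1, EPCAM, CRIPTO and MIR302A sit far above the untransduced arrays in both transduced groups, SNAI2, PAX3 and TFAP2B lie between control-shRNA and untransduced arrays, and DLX5 is highest and NR2F1 lowest in the KBTBD8-shRNA arrays.

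Genes of the pluripotent state also remained higher than in untransduced embryoid bodies. Of 26 tested members 20 were higher and 1 lower, with a median of 0.581; with 18 arrays 15 were higher. CRIPTO, the NODAL co-receptor, was 6.83 and 6.99 in KBTBD8-shRNA, 5.40, 5.72 and 5.57 in control-shRNA and 3.41, 2.53 and 3.33 in untransduced embryoid bodies. The 3 groups did not overlap, and the fitted difference from untransduced embryoid bodies, whose arrays all had low signals, was 3.82 (SE 0.19, adjusted p = 8.98e-10). The level was still far from the 11.00 ± 0.06 of untransduced pluripotent cells (SD, 3 arrays). PODXL, a sialomucin of the stem cell surface, was higher by 2.90, the tetraspanin CD9 by 2.39 and the zinc finger factor ZFP42 by 2.10. PODXL averaged 11.78 ± 0.14 in untransduced pluripotent cells (SD, 3 arrays), and its embryoid body signals were 10.21 and 10.47 in KBTBD8-shRNA, 10.14, 10.13 and 10.11 in control-shRNA and 7.51, 7.37 and 7.44 in untransduced embryoid bodies. POLR3G, a subunit of RNA polymerase III, was higher by 1.70 and PRDM14, a repressor of differentiation genes, by 1.26. LEFTY1, LEFTY2, NODAL, TERF1 and FGF2 were not called, and LIN28B was the member called lower; these were named after their values were seen. The markers DPPA4 and L1TD1 were each higher by 0.38. Against control-shRNA embryoid bodies 5 of the 26 were higher and none lower, CRIPTO among them by 1.35.

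The microRNA genes that were called were higher as well. The probe sets read the precursor or its host transcript rather than the mature microRNA. Of 17 microRNA genes tested, 6 were higher and none lower, with a median of 0.254, and none was called against control-shRNA embryoid bodies. Over all genes tested 22.4% were higher and 18.4% lower, and 5.74% were called against control-shRNA embryoid bodies. The mature strands of those 6 genes are printed from RefSeq on GRCh38.p14 to show which families the calls belong to, with the seed, bases 2 to 8, in capitals. hsa-miR-302a-3p lies at chr4:112648186-112648208 and hsa-miR-302b-3p at chr4:112648489-112648511, both on the minus strand. hsa-miR-21-5p lies at chr17:59841273-59841294, hsa-miR-99a-5p at chr21:16539101-16539122 and hsa-let-7d-5p at chr9:94178841-94178862, all on the plus strand, and hsa-miR-196a-5p lies at chr17:48632532-48632553 on the minus strand.
hsa-miR-302a-3p: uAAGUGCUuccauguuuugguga
hsa-miR-302b-3p: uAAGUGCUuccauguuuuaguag
hsa-miR-21-5p: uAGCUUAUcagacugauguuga
hsa-miR-99a-5p: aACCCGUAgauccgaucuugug
hsa-let-7d-5p: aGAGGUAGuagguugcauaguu
hsa-miR-196a-5p: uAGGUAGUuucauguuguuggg
The 6 strands carry 5 different seeds, since the pair of miR-302 strands share theirs. MIR302A, of the cluster typical of embryonic stem cells, was 8.98 and 9.08 in KBTBD8-shRNA, 9.09, 8.40 and 8.72 in control-shRNA and 4.17, 5.48 and 4.80 in untransduced embryoid bodies. This was the largest positive difference among the named genes, 4.21 (SE 0.30, adjusted p = 5.47e-08). The signal in KBTBD8-shRNA embryoid bodies lay near the 9.31 ± 0.49 of untransduced pluripotent cells (SD, 3 arrays). MIR302B was 6.61 and 6.79 in KBTBD8-shRNA, 6.67, 6.35 and 6.55 in control-shRNA and 4.03, 4.35 and 3.96 in untransduced embryoid bodies, a difference of 2.58. MIR21, whose strand has another seed, was higher by 2.47. The other 3 genes were higher by less: MIR99A by 0.70, MIRLET7D by 0.59 and MIR196A1 by 0.35.

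Genes of the neural plate border were higher than in untransduced embryoid bodies in 13 of 14 tested cases, with none lower and a median of 1.128. Control-shRNA embryoid bodies had 10 of the 14 higher, with a median of 0.526. With 18 arrays the count was 3. DLX5, a homeodomain factor of border and placodes, was 9.86 and 10.12 in KBTBD8-shRNA, 7.95, 7.51 and 7.85 in control-shRNA and 6.92, 7.09 and 6.87 in untransduced embryoid bodies. The KBTBD8-shRNA arrays were the highest, by 3.03 over untransduced (SE 0.14, adjusted p = 6.3e-10) and by 2.22 over control-shRNA embryoid bodies (adjusted p = 8e-08). With 18 arrays the first difference was 1.42 and not called (adjusted p = 0.414). Its paralogue DLX3 was higher by 1.30 than in untransduced embryoid bodies and differed by 0.19 from control-shRNA embryoid bodies (adjusted p = 0.664).

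PAX3, which acts at the border and in the crest, took an intermediate level. Its signals were 7.34 and 7.58 in KBTBD8-shRNA, 9.41, 9.44 and 9.37 in control-shRNA and 4.99, 4.76 and 4.83 in untransduced embryoid bodies. No arrays overlapped: KBTBD8-shRNA embryoid bodies differed by 2.60 from untransduced (SE 0.12, adjusted p = 6.3e-10) and by -1.95 from control-shRNA ones (adjusted p = 6.42e-08). With 18 arrays the first difference was 1.63 and not called (adjusted p = 0.0922). Other border factors did not share this middle position. PAX7 was higher than in untransduced embryoid bodies by 1.67 and differed from control-shRNA ones by -0.37 (adjusted p = 0.412). ZIC1, a zinc finger factor of the border, was higher by 2.14, and MSX2, a BMP-induced homeodomain factor, also by 2.14. ZIC1 was 0.57 above control-shRNA embryoid bodies (adjusted p = 0.0397), while MSX2 differed from them by -0.15 (adjusted p = 0.854).

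Neural crest genes were mostly higher than in untransduced embryoid bodies and, in about as many cases, lower than in control-shRNA ones. Of 24 tested members 14 were higher and 2 lower than in untransduced embryoid bodies, with a median of 0.490; with 18 arrays 7 were higher and 2 lower. In control-shRNA embryoid bodies 16 were higher and 2 lower, with a median of 0.824. Against control-shRNA embryoid bodies 13 of the 24 were lower in KBTBD8-shRNA ones and none higher, with a median of -0.488, where 2.94% of all genes tested were lower. SNAI2, the transcriptional repressor SLUG that promotes crest migration, was 8.53 and 8.88 in KBTBD8-shRNA, 11.28, 11.28 and 11.12 in control-shRNA and 7.38, 7.21 and 7.15 in untransduced embryoid bodies. It lay nearer the untransduced level, 1.46 above it (SE 0.12, adjusted p = 2.58e-07), with a difference of -2.52 from control-shRNA embryoid bodies (adjusted p = 3.01e-09). With 18 arrays the first difference was 0.67 and not called (adjusted p = 0.363).

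The crest factors differed in how near the untransduced level they came. ETS1, an ETS factor of the cranial crest, was 6.00 and 6.00 in KBTBD8-shRNA, 9.31, 9.14 and 9.12 in control-shRNA and 5.22, 4.96 and 5.18 in untransduced embryoid bodies, with differences of 0.88 from untransduced and -3.19 from control-shRNA ones. SOX10, which marks the migrating crest, was 6.75 and 6.84 in KBTBD8-shRNA, 8.13, 8.40 and 8.21 in control-shRNA and 6.06, 6.06 and 5.95 in untransduced embryoid bodies. FOXD3, a forkhead factor of premigratory crest, was 5.20 and 5.01 in KBTBD8-shRNA, 6.65, 6.67 and 6.41 in control-shRNA and 4.86, 4.55 and 4.17 in untransduced embryoid bodies. All 3 were thus closer to untransduced than to control-shRNA arrays, though still called higher than untransduced, SOX10 by 0.77 and FOXD3 by 0.57.

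The AP-2 factors stayed nearer the control-shRNA level. TFAP2A was 8.72 and 8.95 in KBTBD8-shRNA, 9.63, 9.79 and 9.65 in control-shRNA and 6.21, 6.34 and 6.19 in untransduced embryoid bodies, a difference of 2.59 from untransduced and -0.86 from control-shRNA ones. TFAP2C, which also serves in surface ectoderm and trophoblast, was 8.09 and 8.36 in KBTBD8-shRNA, 8.60, 8.67 and 8.74 in control-shRNA and 5.02, 5.10 and 4.57 in untransduced embryoid bodies; it was higher by 3.32 and differed from control-shRNA by -0.45 (adjusted p = 0.0859). TFAP2B was 8.35 and 8.96 in KBTBD8-shRNA, 10.89, 10.76 and 10.72 in control-shRNA and 5.83, 5.72 and 5.99 in untransduced embryoid bodies, a difference of 2.81 from untransduced and -2.14 from control-shRNA ones. With 18 arrays the TFAP2B difference from untransduced was 1.63 and not called (adjusted p = 0.169). The cadherin CDH6 of early crest was higher than in untransduced embryoid bodies by 1.37, and the receptor NGFR by 0.41. SOX9 differed by -0.15 (95% interval -0.35 to 0.05, adjusted p = 0.214), and in all 3 groups its arrays lay between 7.38 and 7.65.

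**Figure D3:**
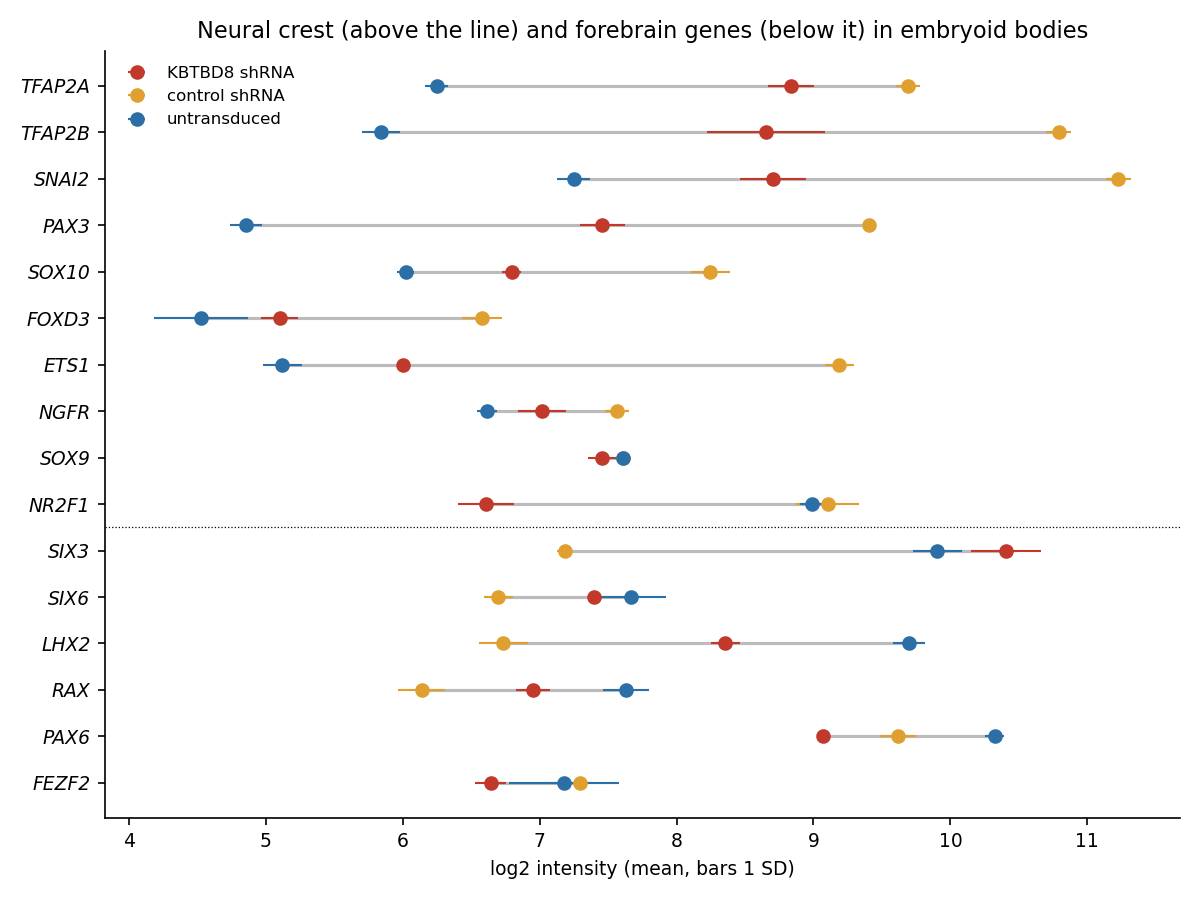
Mean log2 signal with bars of 1 SD (horizontal axis) of 10 neural crest genes, above the dotted line, and 6 forebrain genes, below it, in KBTBD8-shRNA (2 arrays), control-shRNA (3 arrays) and untransduced (3 arrays) embryoid bodies. For SNAI2, ETS1, SOX10 and FOXD3 the KBTBD8-shRNA mean lies nearer the untransduced mean, for TFAP2A and TFAP2B nearer the control-shRNA mean, and SIX3 and SIX6 lie near their untransduced means; the control-shRNA point of SOX9 is hidden under the untransduced one.

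Forebrain genes were called in both directions, more of them lower. Of 21 tested members 5 were higher and 9 lower than in untransduced embryoid bodies, with a median of -0.275. Only the lower side stood above its share over all genes tested, which was 22.4% higher and 18.4% lower. The number higher was 3 without KBTBD8 shRNA replicate 3 and also 3 without untransduced replicate 3, and with 18 arrays 1 was higher and 6 lower. Control-shRNA embryoid bodies had 3 of the 21 higher and 14 lower, with a median of -0.970. Against control-shRNA embryoid bodies, 10 of the 21 were higher in KBTBD8-shRNA ones, where 2.8% of all genes tested were higher, and 5 were lower. SIX3, a homeodomain factor of the most anterior neural plate, was 10.23 and 10.59 in KBTBD8-shRNA, 7.14, 7.24 and 7.16 in control-shRNA and 9.81, 10.11 and 9.79 in untransduced embryoid bodies. It was slightly above the untransduced level, by 0.50 (adjusted p = 0.0157), and 3.23 above the control-shRNA level (adjusted p = 3.01e-09).

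LHX2, a LIM-homeodomain factor of eye field and cortex, stood between the groups. Its signals were 8.28 and 8.43 in KBTBD8-shRNA, 6.56, 6.92 and 6.72 in control-shRNA and 9.83, 9.65 and 9.61 in untransduced embryoid bodies. The difference was -1.34 from untransduced (SE 0.17, adjusted p = 2.56e-05) and 1.62 from control-shRNA embryoid bodies (adjusted p = 1.62e-05). RAX, needed for the optic vesicle, followed the same order, with differences of -0.68 and 0.81. SIX6, an eye field factor, was 7.37 and 7.42 in KBTBD8-shRNA, 6.60, 6.80 and 6.70 in control-shRNA and 7.75, 7.88 and 7.38 in untransduced embryoid bodies. It overlapped the untransduced arrays, with a difference of -0.27 (95% interval -0.55 to 0.01, adjusted p = 0.107). PAX6, of forebrain and eye, went further down, with 9.04 and 9.10 in KBTBD8-shRNA, 9.77, 9.53 and 9.55 in control-shRNA and 10.32, 10.26 and 10.40 in untransduced embryoid bodies, a difference of -1.26. FEZF2, of the dorsal forebrain, was lower than in untransduced embryoid bodies by a difference of -0.53 (adjusted p = 0.0376).

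Other forebrain members moved differently from SIX3 and LHX2. MEIS1, a TALE homeodomain factor, had the largest decrease of all named genes, with 5.0 and 5.49 in KBTBD8-shRNA, 6.02, 6.22 and 5.95 in control-shRNA and 8.46, 8.47 and 8.61 in untransduced embryoid bodies, a difference of -3.27 (SE 0.13, adjusted p = 1.05e-10). SFRP2, a secreted WNT modulator, was lower by a like amount in both transduced groups, with a difference of -1.48 for KBTBD8 shRNA. LHX5, an anterior LIM-homeodomain factor, was higher by 1.60 than in untransduced embryoid bodies and differed from control-shRNA ones by 0.21 (adjusted p = 0.563). VAX1, of the ventral eye and forebrain, was 6.84 and 6.89 in KBTBD8-shRNA, 5.26, 5.61 and 5.15 in control-shRNA and 5.55, 5.49 and 5.74 in untransduced embryoid bodies. VAX1 was above both other groups, by 1.27 and 1.52. Genes of neural progenitors were lower in 13 of 23 tested cases and higher in 1, with a median of -0.460, and 12 of the 23 were lower in control-shRNA embryoid bodies. The lipid binding protein FABP7 of radial glia was lower by a difference of -1.66, the intermediate filament NES by -0.88, the SOX factor SOX21 by -0.86 and the zinc finger factor ZNF521 by -0.84. NCAM1, the neural cell adhesion molecule, was 6.75 and 6.68 in KBTBD8-shRNA, 7.75, 7.90 and 7.66 in control-shRNA and 7.98, 7.49 and 7.65 in untransduced embryoid bodies, so here the control-shRNA and untransduced arrays overlapped and the KBTBD8-shRNA arrays were lower.

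Some genes set KBTBD8-shRNA embryoid bodies apart from both other groups. Only genes called in the same direction against both groups, with no overlap of arrays, could enter. The 8 highest and 8 lowest were ranked by the smaller of their differences from the other groups, so their position is a description. NR2F1, a nuclear receptor of crest and neural progenitors, was 6.75 and 6.46 in KBTBD8-shRNA, 8.84, 9.26 and 9.21 in control-shRNA and 9.05, 8.89 and 9.02 in untransduced embryoid bodies, with differences of -2.50 from control-shRNA and -2.38 from untransduced ones. NRIP3 was 5.88 and 5.92 in KBTBD8-shRNA, 8.37, 8.34 and 8.37 in control-shRNA and 7.23, 7.29 and 7.38 in untransduced embryoid bodies. SCUBE2, which helps release hedgehog proteins, was 5.02 and 4.98 in KBTBD8-shRNA, 7.39, 7.47 and 7.92 in control-shRNA and 6.96, 6.23 and 6.71 in untransduced embryoid bodies. By the choice of genes, every KBTBD8-shRNA array was below every other embryoid body array in each of the 8 lowest. SULF1, a heparan sulfate endosulfatase, differed by -2.25 from untransduced and -1.57 from control-shRNA embryoid bodies, and the neuronal calponin relative TAGLN3 by -1.79 and -1.56. EYA4, a placodal cofactor, differed by -2.75 and -1.26, ZC3H12C, of the regnase family, by -2.14 and -1.24, and the transporter ABCA5 by -1.27 and -1.18.

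The genes highest in KBTBD8-shRNA embryoid bodies included DLX5 and CRIPTO, described above. HPGD, which degrades prostaglandins, was 5.79 and 6.34 in KBTBD8-shRNA, 3.96, 4.04 and 3.61 in control-shRNA and 4.03, 3.02 and 3.51 in untransduced embryoid bodies. ADAM28, a membrane metalloprotease, was 7.18 and 7.12 in KBTBD8-shRNA, 5.01, 4.93 and 5.08 in control-shRNA and 4.86, 4.83 and 4.87 in untransduced embryoid bodies, and SLITRK1, a neuronal membrane protein, was 9.90 and 9.82 in KBTBD8-shRNA, 7.79, 7.89 and 7.81 in control-shRNA and 8.28, 8.75 and 8.23 in untransduced embryoid bodies. For HPGD and ADAM28 the other groups lay close together. With 18 arrays neither ADAM28 (1.5, adjusted p = 0.0639) nor SLITRK1 (0.40, adjusted p = 0.733) was called against untransduced embryoid bodies. HAPLN1, a link protein of the hyaluronan matrix, differed by 3.45 from untransduced and 1.44 from control-shRNA embryoid bodies, and with 18 arrays its difference from untransduced was 1.89 and not called (adjusted p = 0.199). RIPPLY3, a repressor of the pharyngeal and placodal region, differed by 1.96 and 1.32, and NPR1, a natriuretic peptide receptor, by 1.77 and 1.37.

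The remaining large decreases against untransduced embryoid bodies were shared with the control-shRNA group. FGF9, a fibroblast growth factor, was 5.93 and 5.74 in KBTBD8-shRNA, 5.29, 5.38 and 5.40 in control-shRNA and 8.49, 8.40 and 8.42 in untransduced embryoid bodies, a difference of -2.60. PARM1, a mucin-like membrane protein, was 5.29 and 4.77 in KBTBD8-shRNA, 5.60, 5.49 and 5.45 in control-shRNA and 7.91, 7.82 and 7.97 in untransduced embryoid bodies, a difference of -2.87. Both transduced groups lay well below every untransduced array for either gene. The calcium sensor NCALD was lower by a difference of -2.67, the secretory pathway protein DIPK1C by -2.58, the kinase anchor AKAP6 by -2.44, the extracellular protein MMRN1 by -2.38, the zinc finger factor GLIS3 by -2.35 and PHYHIPL by -2.23. Of these 6, NCALD, GLIS3 and PHYHIPL were also called lower than in control-shRNA embryoid bodies, by differences of -0.41, -0.52 and -0.77. Among the increases, SEMA3E, a secreted semaphorin, was higher by 3.19 than in untransduced and by 1.08 than in control-shRNA embryoid bodies.

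Genes of the BMP pathway were higher in 15 of 21 tested cases and lower in 1, with a median of 0.538, beside 16 higher and 1 lower in control-shRNA embryoid bodies. With 18 arrays 7 were higher. The ligand BMP4 was 5.56 and 5.92 in KBTBD8-shRNA, 5.73, 5.90 and 5.66 in control-shRNA and 4.65, 4.25 and 4.44 in untransduced embryoid bodies, so that both transduced groups overlapped each other above the untransduced arrays. The difference for BMP4 was 1.29, and those for the extracellular regulator BMPER and the antagonist GREM1 were 1.88 and 1.79. BMP5 was higher by 1.23 than in untransduced embryoid bodies but lower than in control-shRNA ones, with a difference of -0.86. ID4, an inhibitor of basic helix-loop-helix factors, was higher by 1.16.

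WNT targets and feedback genes were higher in 9 and lower in 2 of 15 tested cases, with a median of 0.536; with 18 arrays 6 were higher and 2 lower. In control-shRNA embryoid bodies 12 were higher and 1 lower, and against them 7 of the 15 were lower in KBTBD8-shRNA ones and 1 higher. DKK1, a secreted WNT inhibitor that WNT signalling induces, was 5.79 and 5.78 in KBTBD8-shRNA, 8.14, 7.90 and 7.91 in control-shRNA and 3.84, 3.46 and 3.13 in untransduced embryoid bodies. It lay between the other groups, with a difference of -2.20 from control-shRNA arrays and a fitted difference of 2.31 from untransduced arrays, which all had low signals. WLS, the carrier of WNT proteins to the surface, was 9.26 and 9.24 in KBTBD8-shRNA, 11.19, 11.13 and 11.19 in control-shRNA and 8.58, 8.09 and 8.23 in untransduced embryoid bodies, nearer the untransduced arrays. LEF1, a nuclear effector of WNT, was below both groups, at 6.92 and 7.10 in KBTBD8-shRNA, 8.63, 8.42 and 8.47 in control-shRNA and 8.08, 7.96 and 8.32 in untransduced embryoid bodies. LGR5, an R-spondin receptor, was between them, with differences of -0.87 from untransduced and 1.17 from control-shRNA embryoid bodies. The feedback gene APCDD1 was higher than in untransduced embryoid bodies by 1.02 and the ligase RNF43 by 0.96. Among 16 tested WNT antagonists and frizzled receptors, 4 were higher and 3 lower, near the shares over all genes tested (22.4% and 18.4%). The number higher was 1 or 2 when KBTBD8 shRNA replicate 1, untransduced replicate 1 or untransduced replicate 2 was left out. FRZB, a secreted antagonist, was 9.80 and 9.84 in KBTBD8-shRNA, 7.95, 7.72 and 8.08 in control-shRNA and 10.08, 10.14 and 10.32 in untransduced embryoid bodies. Its difference from untransduced was -0.36 (95% interval -0.85 to 0.13, adjusted p = 0.222), and from control-shRNA embryoid bodies 1.91.

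FGF ligands, receptors and ERK feedback genes went both ways, with 8 of 24 tested higher and 7 lower than in untransduced embryoid bodies. Over all genes tested these shares were 22.4% and 18.4%. Against control-shRNA embryoid bodies 8 were higher and 1 lower, beside 2.8% and 2.94% over all genes tested. DUSP6, a phosphatase that ERK signalling induces, was 8.22 and 8.32 in KBTBD8-shRNA, 6.61, 6.78 and 6.74 in control-shRNA and 7.11, 7.71 and 7.15 in untransduced embryoid bodies, so KBTBD8-shRNA arrays were the highest, by 0.95 over untransduced and 1.56 over control-shRNA ones. ETV4, another ERK-induced factor, was higher by 1.32 and 0.60. The receptors FGFR3 and FGFR2 were higher than in untransduced embryoid bodies by 1.16 and 1.00, and FOS by 0.94. Of 11 tested retinoic acid genes 4 were higher and 1 lower, beside 22.4% and 18.4% over all genes tested. CYP26A1, which degrades retinoic acid, was 7.88 and 8.30 in KBTBD8-shRNA, 7.22, 7.14 and 7.04 in control-shRNA and 4.66, 4.63 and 4.76 in untransduced embryoid bodies, a difference of 3.40. The receptor RARG was higher by 1.42 and the retinal reductase DHRS3 by 1.35, and neither was called against control-shRNA embryoid bodies.

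**Figure D4:**
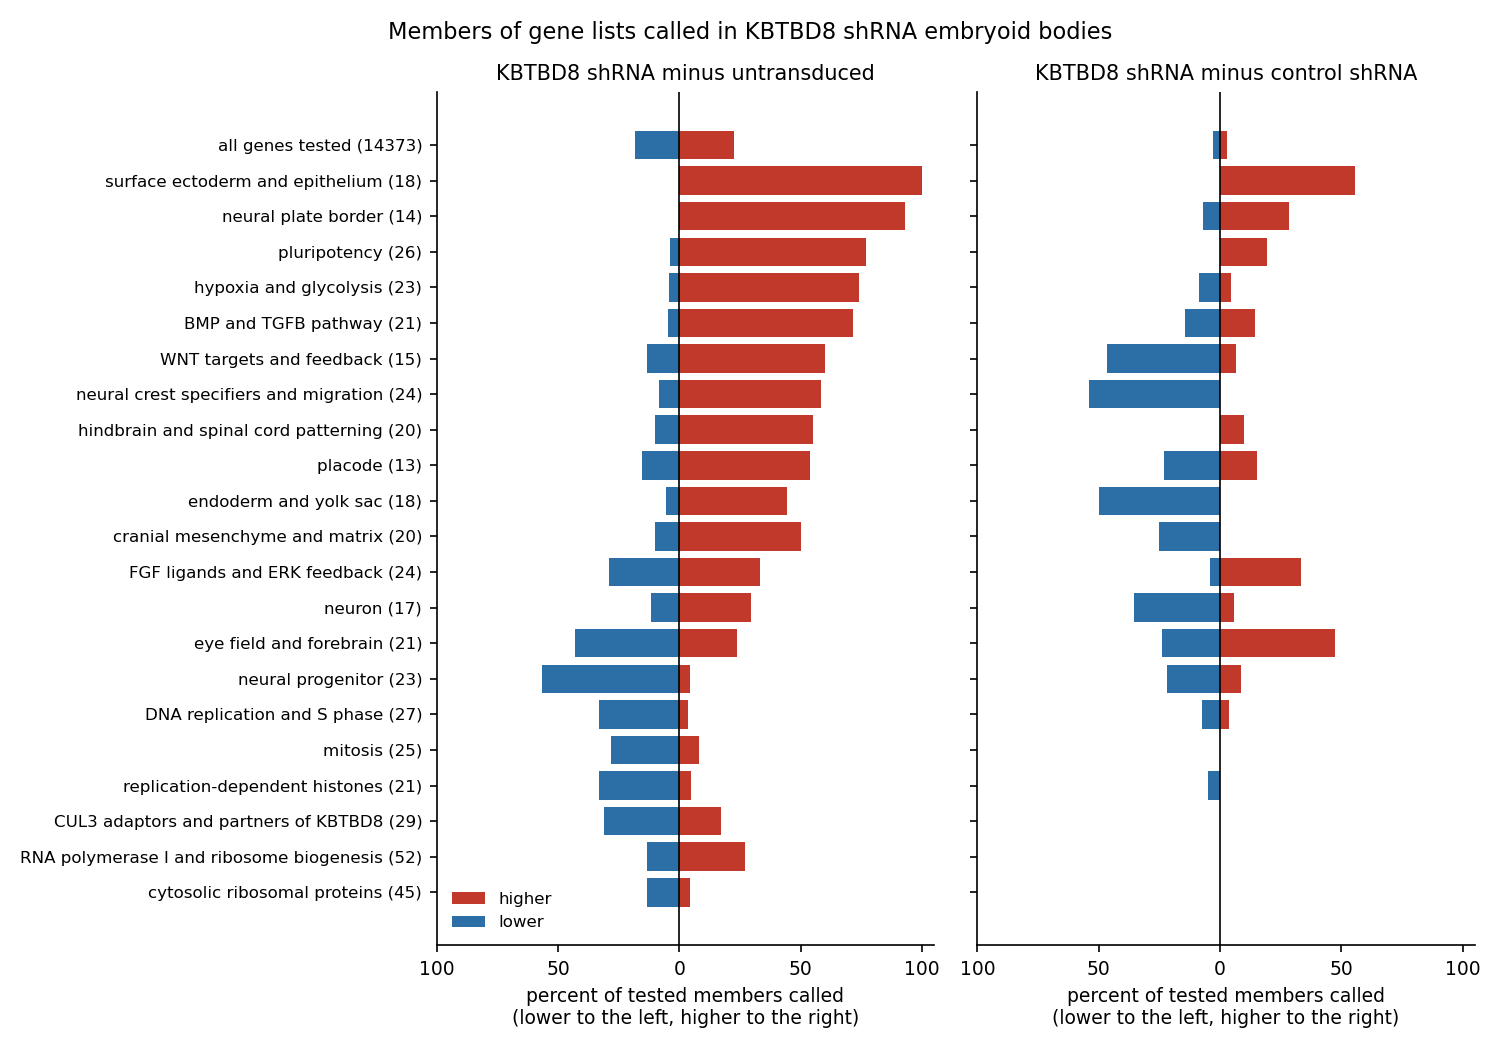
Percent of tested members called higher or lower (horizontal axis) for 21 gene groups and for all genes tested, with the left panel for KBTBD8-shRNA minus untransduced and the right panel for KBTBD8-shRNA minus control-shRNA embryoid bodies. Epithelial, border, pluripotency and BMP genes stand above the all-gene level on the higher side of the left panel, and crest genes (13 of 24) and endoderm genes (9 of 18) stand above it on the lower side of the right panel.

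Some endoderm and yolk sac markers that were high in control-shRNA embryoid bodies were much lower in KBTBD8-shRNA ones. TTR, a liver and yolk sac transport protein, was 5.49 and 5.25 in KBTBD8-shRNA, 8.12, 7.83 and 7.97 in control-shRNA and 5.12, 5.08 and 4.88 in untransduced embryoid bodies. It differed from untransduced embryoid bodies by 0.34 (95% interval -0.01 to 0.69, adjusted p = 0.111) and from control-shRNA ones by -2.60. AFP, the fetal albumin relative, was 4.85 and 4.23 in KBTBD8-shRNA, 7.65, 7.11 and 7.24 in control-shRNA and 3.31, 3.52 and 4.04 in untransduced embryoid bodies, and was called higher than untransduced by 0.92. The apolipoprotein APOA2 was higher than untransduced by 0.59, with a difference of -2.67 from control-shRNA embryoid bodies. Of 18 tested endoderm and yolk sac genes, 8 were higher and 1 lower than in untransduced embryoid bodies, and 5 higher without KBTBD8 shRNA replicate 1. Over all genes tested 22.4% were higher and 18.4% lower than in untransduced embryoid bodies. Against control-shRNA embryoid bodies 9 of the 18 were lower and none higher, where 2.94% of all genes tested were lower. FOXA2, an endoderm forkhead factor, differed from untransduced by 0.38 (95% interval 0.04 to 0.71, adjusted p = 0.0657).

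The mesoderm, streak and vessel genes that were called were all higher than in untransduced embryoid bodies, though some counts depended on single arrays. Beside the counts given here, 22.4% of all genes tested were higher and 18.4% lower than in untransduced embryoid bodies. MEF2C, a muscle and crest factor, was 5.0 and 4.57 in KBTBD8-shRNA, 7.36, 7.29 and 7.27 in control-shRNA and 4.67, 4.79 and 4.53 in untransduced embryoid bodies. Its arrays overlapped the untransduced ones (difference 0.12, 95% interval -0.26 to 0.50, adjusted p = 0.611) and lay below control-shRNA ones by a difference of -2.52. Of 14 tested mesoderm genes 6 were higher and none lower than in untransduced embryoid bodies, with 3 higher with 18 arrays, and against control-shRNA embryoid bodies 2 were lower and none higher. The VEGF receptor KDR was higher by 2.20 than in untransduced embryoid bodies and differed by -0.03 from control-shRNA ones (adjusted p = 0.975). Of 13 tested genes of primitive streak and mesendoderm 7 were higher, but 2 without KBTBD8 shRNA replicate 1; the streak factor TBXT was higher by 0.46. Of 12 tested endothelial and blood genes 5 were higher, with 1 to 3 when KBTBD8 shRNA replicate 1, untransduced replicate 2 or untransduced replicate 3 was left out, and the receptor TEK differed by 0.30 (adjusted p = 0.204). Of 10 tested trophoblast and amnion genes 8 were higher and 1 lower, and 5 higher without KBTBD8 shRNA replicate 1. In that group GATA3, shared with border and surface ectoderm, was 7.60 and 7.62 in KBTBD8-shRNA, 6.72, 6.78 and 6.37 in control-shRNA and 5.14, 4.91 and 5.29 in untransduced embryoid bodies, above both other groups. The keratin KRT7 was higher by 0.96, and the growth factor binding protein IGFBP3 was lower by a difference of -2.22.

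Genes of placode, mesenchyme and cell contact combined increases and decreases, beside 22.4% higher and 18.4% lower over all genes tested. Of 13 tested placode genes 7 were higher and 2 lower, with 3 and 1 with 18 arrays. PAX8, of the ear placode, was 7.50 and 7.92 in KBTBD8-shRNA, 5.87, 6.09 and 5.91 in control-shRNA and 6.69, 6.97 and 6.43 in untransduced embryoid bodies, above both by 1.76 over control-shRNA and 1.02 over untransduced ones. The placode gene EYA2 was higher than in untransduced embryoid bodies by 1.06. Of 20 tested mesenchyme and matrix genes 10 were higher and 2 lower, and 6 higher without KBTBD8 shRNA replicate 1. The annexin partner S100A10 was higher by 2.23 than in untransduced embryoid bodies with a difference of -1.12 from control-shRNA ones, and TWIST1 was higher than untransduced by 0.96. VIM, the mesenchymal filament protein, was 10.03 and 10.27 in KBTBD8-shRNA, 11.18, 11.13 and 11.12 in control-shRNA and 10.81, 10.85 and 10.84 in untransduced embryoid bodies, below both groups.

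Among 19 tested cadherins and protocadherins 8 were higher and 4 lower than in untransduced embryoid bodies. CDH9, a type II cadherin, was 6.20 and 6.40 in KBTBD8-shRNA, 8.24, 8.30 and 8.27 in control-shRNA and 3.88, 4.05 and 3.98 in untransduced embryoid bodies, between the other groups. PCDH10 followed the same order, with differences of 1.43 from untransduced and -1.67 from control-shRNA embryoid bodies. CDH3, of placenta and surface ectoderm, was above both by 1.82 and 0.70. Of 33 tested guidance molecules 15 were higher and 7 lower. The semaphorin receptor NRP2 was higher than in untransduced embryoid bodies by 1.45 with a difference of -1.88 from control-shRNA ones, and SEMA5A was lower than untransduced by a difference of -1.91. Of 19 tested integrins and laminins 9 were higher and 1 lower, and 5 higher without KBTBD8 shRNA replicate 3. In the insulin-like growth factor axis 3 of 14 were higher and 3 lower, with IGFBP5 lower by a difference of -1.71. Only the counts of this last group were near the shares over all genes tested, 22.4% higher and 18.4% lower. Calls in either direction made up 63.2% of the cadherins and protocadherins, 66.7% of the guidance molecules and 52.6% of the integrins and laminins. Over all genes tested this share was 40.8%.

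Neuronal genes were called about as often as all genes tested. Of 17 tested, 5 were higher (22.4% over all genes) and 2 lower (18.4% over all genes) than in untransduced embryoid bodies, beside 11 higher and 2 lower in control-shRNA ones. GAP43, of growing axons, was 9.15 and 9.15 in KBTBD8-shRNA, 9.56, 9.50 and 9.55 in control-shRNA and 6.69, 6.95 and 6.76 in untransduced embryoid bodies, a difference of 2.35. The neurofilament NEFM was higher by 1.22, the secretory granule protein SCG3 by 1.20, the sensory neuron factor POU4F1 by 1.08 and NEFL by 0.96. ELAVL2, an RNA binding protein of neurons, was lower by a difference of -1.11. STMN2, of young neurons, was 6.51 and 6.73 in KBTBD8-shRNA, 8.11, 7.90 and 8.15 in control-shRNA and 6.83, 6.69 and 6.88 in untransduced embryoid bodies. It overlapped the untransduced arrays (difference -0.18, 95% interval -0.53 to 0.17) and lay below control-shRNA ones by a difference of -1.44. Of 20 tested genes of hindbrain and spinal cord patterning 11 were higher and 2 lower, with 5 and 1 with 18 arrays.

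Genes that respond to low oxygen were higher in 17 of 23 tested cases and lower in 1, with a median of 0.744, beside 19 higher and 1 lower in control-shRNA embryoid bodies. With 18 arrays 7 were higher. Hypoxia-inducible factors are known to bind the letters ACGTG, and promoters of the pair of members with the largest increases are printed for that reason, as the 250 bases before the start in RefSeq on GRCh38.p14. ANKRD37 has chr4:185396591-185396840 on the plus strand and ALDOC chr17:28576896-28577145 on the minus strand, each with 3 matches of ACGTG on either strand, in capitals, where CACGTG counts on both strands.
ANKRD37: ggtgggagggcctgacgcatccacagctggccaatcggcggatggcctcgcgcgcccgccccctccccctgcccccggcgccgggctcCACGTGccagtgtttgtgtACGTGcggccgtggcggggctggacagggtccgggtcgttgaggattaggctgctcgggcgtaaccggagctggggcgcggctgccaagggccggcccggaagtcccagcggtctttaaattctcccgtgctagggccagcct
ALDOC: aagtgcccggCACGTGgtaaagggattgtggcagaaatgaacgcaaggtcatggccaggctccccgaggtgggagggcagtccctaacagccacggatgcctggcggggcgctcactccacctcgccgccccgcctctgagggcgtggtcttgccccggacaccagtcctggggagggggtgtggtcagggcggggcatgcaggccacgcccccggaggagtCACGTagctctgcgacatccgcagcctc
A promoter was at hand for 18 tested hypoxia members, of which 9 hold the motif, and 7 of these 9 were higher, beside 13 of the 18. Among all 11366 tested genes with a promoter 2558 hold it (22.5%). ANKRD37, an ankyrin repeat protein, was 9.99 and 9.92 in KBTBD8-shRNA, 9.79, 9.85 and 9.80 in control-shRNA and 8.01, 8.03 and 7.81 in untransduced embryoid bodies, a difference of 2.0. The glycolytic aldolase ALDOC was 9.44 and 9.59 in KBTBD8-shRNA, 9.21, 9.31 and 9.43 in control-shRNA and 8.15, 7.91 and 7.55 in untransduced embryoid bodies, a difference of 1.64. Both transduced groups lay above the untransduced arrays and close to each other. ANKZF1 was higher by 1.33, the stress gene NDRG1 by 1.26, the vasoactive peptide ADM by 1.17 and the kinase PDK1, an inhibitor of pyruvate dehydrogenase, by 1.15. BNIP3L was the member called lower and LDHA was among those not called, as seen after their values were known.

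Ribosome genes differed little between the groups. Of 52 tested genes of RNA polymerase I and ribosome biogenesis 14 were higher and 7 lower than in untransduced embryoid bodies, with a median of 0.004. These calls made up 40.4% of the 52, beside 40.8% of all genes tested. For 51 of the 52 the 95% interval lay within 1 log2 unit of 0. The number higher was 8 without untransduced replicate 1, 9 without KBTBD8 shRNA replicate 1 and 8 without KBTBD8 shRNA replicate 3, and the number lower was 4 without KBTBD8 shRNA replicate 1. MYBBP1A, a nucleolar repressor, was higher by 0.85 and the assembly factor TSR1 by 0.61, while POLR1H, a polymerase I subunit, was lower by a difference of -0.65. Of 45 tested cytosolic ribosomal proteins 2 were higher and 6 lower, with a median of -0.072, and 3 lower without KBTBD8 shRNA replicate 3. The intervals of all 45 lay within 1 log2 unit of 0. The extremes were RPL28, with 9.93 and 9.92 in KBTBD8-shRNA, 9.84, 9.86 and 9.93 in control-shRNA and 10.71, 10.66 and 10.70 in untransduced embryoid bodies, and RPL32, higher by 0.58. No tested member of either group was called against control-shRNA embryoid bodies, where 5.74% of all genes tested were called.

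Cell cycle genes were called about as often as all genes tested only with both directions joined, and their calls lay mostly on the lower side. The joined shares were 37.0% for S phase, 36.0% for mitosis and 38.1% for histones, beside 40.8% of all genes tested. By direction, 22.4% of all genes tested were higher and 18.4% lower. Of 27 tested genes of replication and S phase 9 were lower and 1 higher, with a median of -0.162, and 5 lower with 18 arrays; 13 were lower in control-shRNA embryoid bodies. PCNA, the replication clamp, was 8.92 and 8.98 in KBTBD8-shRNA, 9.07, 8.80 and 9.02 in control-shRNA and 9.92, 9.93 and 10.07 in untransduced embryoid bodies, a difference of -1.02. Of 25 tested mitosis genes 7 were lower and 2 higher, and 2 lower without KBTBD8 shRNA replicate 1. Of 21 tested replication-dependent histones 7 were lower and 1 higher, and 4 lower without KBTBD8 shRNA replicate 1, with H2BC12 showing the largest decrease, at a difference of -1.56. Of 29 tested genes of the integrated stress response 10 were higher and none lower, and 6 higher without KBTBD8 shRNA replicate 3, with the secreted glycoprotein STC2 higher by 1.40. Among 21 tested p53 targets 3 were higher and 4 lower, with 2 lower without KBTBD8 shRNA replicate 1, and the BH3 protein PMAIP1 was higher by 2.50. In the NOTCH group 5 of 19 were higher and 5 lower, counts of 2 or 3 each when KBTBD8 shRNA replicate 1, KBTBD8 shRNA replicate 3 or untransduced replicate 3 was left out, and the ligand DLK1 was lower by a difference of -1.12. Of 13 tested interferon genes, a response that virus can evoke, 2 were higher and 2 lower; the RNA sensor RIGI differed by 0.59, EIF2AK2 by -0.59, ISG15 by 0.55 and OAS1 by -0.50.

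The same contrast was also made before differentiation, on other arrays, which does not show when a difference arose. In pluripotent cells 4041 genes (28.1%) differed between KBTBD8-shRNA and untransduced cells, 2456 (17.1%) higher and 1585 (11%) lower, with 2037 genes without pluripotent KBTBD8 shRNA replicate 3 and 2494 without replicate 1. The difference between the states, tested as an interaction, was called for 3088 genes (21.5%), 1332 (9.27%) positive and 1756 (12.2%) negative. That count was 1854 without pluripotent KBTBD8 shRNA replicate 3 and 1985 without embryoid body KBTBD8 shRNA replicate 1. Of the 42 genes named by rule 40 had a called interaction, which their choice by embryoid body differences, and for 12 of them by the interaction, favours. CDH1 averaged 10.30 ± 0.01 in KBTBD8-shRNA pluripotent cells (SD, 2 arrays) and 10.34 ± 0.19 in untransduced ones (SD, 3 arrays). In embryoid bodies the means were 10.55 with KBTBD8 shRNA and 6.35 without virus, and the interaction was 4.24. The untransduced signal was thus the one far from its pluripotent level. DLX5, FGF9, LAMP5, NRIP3, SULF1 and SLITRK1 were called in opposite directions in the 2 states. SULF1 had a signal in pluripotent cells of 7.30 ± 0.13 with KBTBD8 shRNA (SD, 2 arrays) and 6.09 ± 0.10 without virus (SD, 3 arrays), and an interaction of -3.46. SLITRK1 was higher in embryoid bodies and lower in pluripotent cells, with 6.69 ± 0.07 in KBTBD8-shRNA and 8.20 ± 0.21 in untransduced pluripotent cells (SD, 2 and 3 arrays) and an interaction of 2.95. Control-shRNA pluripotent cells lay between those means, at 6.84 ± 0.19 for SULF1 and 7.24 ± 0.11 for SLITRK1 (SD, 3 arrays). Some pluripotent signals were near the lower quartiles of their arrays, 4.32 to 4.50. These were DLX5 with KBTBD8 shRNA (4.73 and 4.51) and, without virus, FGF9 (mean 4.54) and LAMP5 (mean 4.61). TCOF1, which was not among the 40, was higher in both states, by 0.58 in embryoid bodies and 0.28 in pluripotent cells, with an interaction of 0.30 (adjusted p = 0.114).

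**Figure D5:**
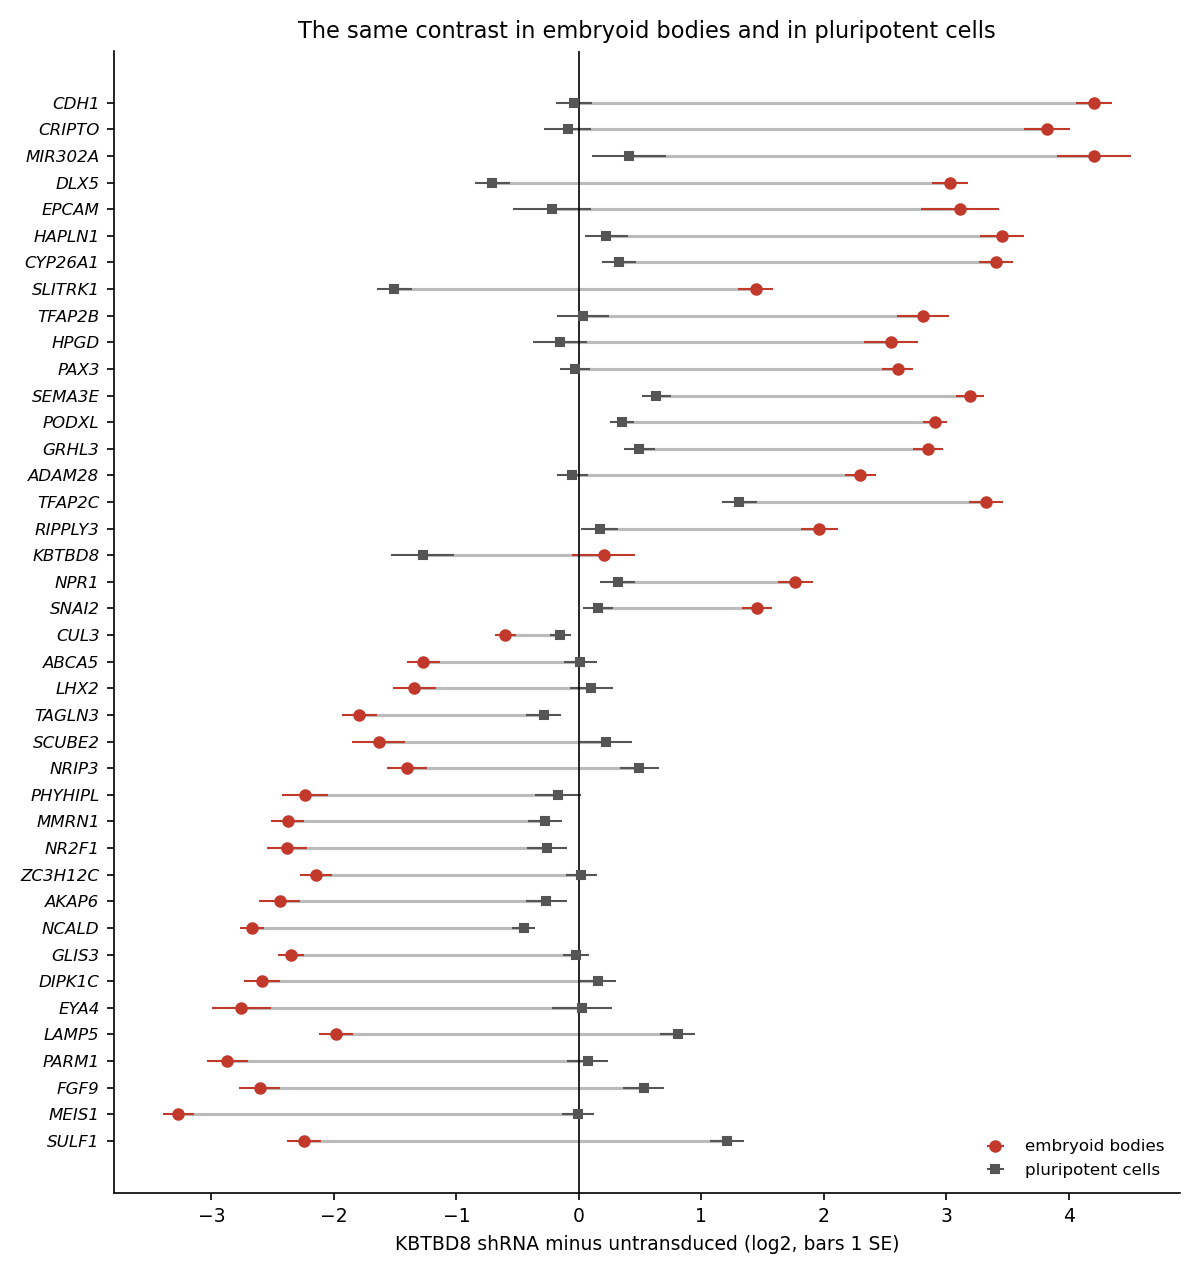
Log2 difference of KBTBD8-shRNA minus untransduced samples (horizontal axis) in embryoid bodies (red circles) and in pluripotent cells (grey squares) for the 40 named genes with a called interaction, with bars of 1 SE. Most grey squares lie near 0 while the red circles reach from -3.27 for MEIS1 to 4.21 for MIR302A, and DLX5, FGF9, LAMP5, NRIP3, SULF1 and SLITRK1 were called in opposite directions in the 2 states.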

How the data were processed

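Each array held RNA of 1 sample, and per the submitters' processing notes the authors processed the scans with GCRMA, a background correction, normalization and summary of probes, to the deposited log2 values of each probe set. Whether all arrays were normalized together is not given in the sources used here. Of 33297 probe sets 19460 had 1 gene symbol, 1754 several and 12083 none, and 31 had no entry in the RefSeq gene table; the brightest probe set stood for a gene. The number of arrays limits the precision. A mean per group was fitted over 16 arrays with limma 3.58.1 (lmFit and eBayes, R 4.3.3), leaving 10 residual degrees of freedom, and p-values were adjusted by the Benjamini-Hochberg method over 14373 genes. The fit was tested on simulated data. Named genes were KBTBD8, its partners and 4 markers, the 12 largest increases and 12 largest decreases against untransduced embryoid bodies with no overlap of arrays, the 8 highest and 8 lowest against both other groups, the 6 largest interactions each way, and the members of each gene list with the largest differences, besides cell type markers. The 8 highest and 8 lowest were also limited to genes called in both comparisons with no overlap of arrays. The members and 39 lists (956 different genes) were chosen with earlier results of these data known. Alternatives were all 18 arrays, only the groups compared, a replicate block, an intensity trend, array weights, other scalings and filters, the mean of probe sets, and leaving out each array. A few genes are not reported here.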

Additional observations from a re-analysis of the deposited data

Results flagged for a closer look

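The results below were picked out because the difference between KBTBD8-shRNA and untransduced samples was not the same in embryoid bodies and in pluripotent cells, by the interaction in limma at an adjusted p under 0.05. Each value is the embryoid body difference minus the pluripotent difference in log2 units. In all, 3088 of the 14373 genes tested met this, among them 40 of the 42 genes named by rule, 20 with a positive and 20 with a negative value. No group had the 4 arrays needed to look for single arrays that stand apart.

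Among adhesion and stem cell genes the values were high, with CDH1 at 4.24, CRIPTO at 3.92, MIR302A at 3.80, EPCAM at 3.33 and PODXL at 2.55. Among factors of surface ectoderm, border and crest, DLX5 stood at 3.74, TFAP2B at 2.78, PAX3 at 2.63, GRHL3 at 2.35, TFAP2C at 2.01, RIPPLY3 at 1.79 and SNAI2 at 1.30. Genes of matrix, signalling and metabolism with positive values were HAPLN1 at 3.23, CYP26A1 at 3.08, SLITRK1 at 2.95, HPGD at 2.70, SEMA3E at 2.56, ADAM28 at 2.35 and NPR1 at 1.45. KBTBD8 itself had 1.48, with a lower signal in pluripotent KBTBD8-shRNA cells and overlapping signals in embryoid bodies.

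Negative values were largest for SULF1 at -3.46, MEIS1 at -3.26, FGF9 at -3.13, PARM1 at -2.94, LAMP5 at -2.79, EYA4 at -2.78 and DIPK1C at -2.74. Further down came GLIS3 at -2.33, NCALD at -2.22, AKAP6 at -2.18, ZC3H12C at -2.16, NR2F1 at -2.12, MMRN1 at -2.10 and PHYHIPL at -2.06. The smallest were those of NRIP3 at -1.90, SCUBE2 at -1.85, TAGLN3 at -1.51, LHX2 at -1.44, ABCA5 at -1.28 and CUL3 at -0.45.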

How the results depend on the processing

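With all 18 arrays, 4537 genes differed between KBTBD8-shRNA and untransduced embryoid bodies, 3892 between control-shRNA and untransduced ones, 361 between the transduced groups, 2022 between KBTBD8-shRNA and untransduced pluripotent cells and 1475 in the interaction. With only the groups compared, the pluripotent count was 2122. Leaving out each array in turn gave 3602 to 5261 genes for KBTBD8-shRNA against untransduced embryoid bodies, 5078 to 5714 for control shRNA, 443 to 624 between the transduced groups, 2037 to 3935 in pluripotent cells and 1854 to 3481 in the interaction. The number of genes within 1 log2 unit was then 12093 to 12869, and 8428 lay within 1.5-fold. The KBTBD8 difference ran from -0.039, without untransduced replicate 3, to 0.457. The mean correlation of KBTBD8-shRNA with untransduced embryoid body arrays was 0.9492, with 0.9688 without a filter and 0.9397 under a stricter one. With the replicate block 5921, 6457, 764, 3876 and 3058 genes were called in the same order of comparisons, 12872 lay within 1 log2 unit and the KBTBD8 difference was 0.316. Same-numbered arrays correlated at 0.173 and 0.099 in their deviations from group means and other pairs at -0.173 to 0.081. Only 2 numbers are shared. The deviations of 2 KBTBD8-shRNA arrays from their mean mirror each other, so these values come in pairs of opposite sign and cannot decide whether arrays were paired. Of the 42 named genes 7 were no longer called with 18 arrays (SNAI2, DLX5, PAX3, HAPLN1, TFAP2B, ADAM28 and SLITRK1). Leaving out single arrays left 209 of 210 values the same, all but that of KBTBD8, whose sign turned, and the other settings 375 of 375. Same here means that the call was kept, and for called genes also the direction. In genes not called, a turn of sign was counted for KBTBD8 alone, so the direction of NOLC1 was not followed. Of the genes called against untransduced embryoid bodies 55% were higher in the main setting, 49.1% after a further quantile normalization and 48.2% with arrays centred on their median, so the side with more calls turned. The cause of each change with the setting was not tested. The 2 arrays per KBTBD8-shRNA group limit every comparison, and low signals such as that of KBTBD8 lie below the array medians.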
